A study of Mus musculus with 3 samples.

Results

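The 9 genes described here were listed as de novo lipogenesis enzymes and activators. Acly, Acss2 and Aacs supply acyl-CoA in the cytosol, and Acaca and Acacb encode the acetyl-CoA carboxylases. Mid1ip1 encodes a carboxylase activator and Thrsp its partner, Fasn the fatty acid synthase and Scd1 the stearoyl-CoA desaturase. The 9 genes were taken by symbol from gene tables of 41799 entries, and each was present once. All 9 passed a filter on low values that 13153 genes passed. The filter was a mean over the libraries of 1 CPM or more, CPM being counts scaled to library size. RNA sequencing had been done on whole liver of male C57BL/6 mice aged 14 weeks, with 1 library for each of 3 groups: regular chow (chow), a high-fat diet (HFD), and HFD with DfCS-Ib, which the series calls a sulfated oligosaccharide, by gavage at 40 mg/kg (HFD+DfCS-Ib). Groups had 8 mice with free access to food. The number of mice behind a library, whether the other groups received vehicle by gavage, the make-up and length of the diet and the hour of tissue collection could not be learned from the labels. With 1 library per group there is no replicate check and no p-value, so each comparison below describes these libraries and not the conditions.

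Hepatocytes build fatty acids from surplus carbohydrate. Citrate exported from mitochondria is cleaved by ATP citrate lyase to acetyl-CoA, acetate is activated to the same product by Acss2, and acetyl-CoA carboxylase converts acetyl-CoA to malonyl-CoA. Fatty acid synthase joins malonyl units into palmitate, and Scd1 introduces a double bond into the saturated product. The transcription factors SREBP-1c, driven by insulin, and ChREBP, driven by glucose metabolites, are known activators of these genes in liver.

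The libraries held 11028671 (chow), 12279537 (HFD) and 10969699 (HFD+DfCS-Ib) counts. Hepatocyte markers dominated all 3, with a summed level of 71076, 62757 and 64515 RPKM over 7 genes in that order. RPKM is reads scaled to gene length and library total. Of these markers 2, Tat and Cps1, were at least 2-fold lower in HFD than in chow. No position could be read for the Cps1 entry, which had 1203, 623 and 837 counts, so its ratio is less certain. Tat, with 52419, 26178 and 56328 counts, was also 2.58-fold higher in HFD+DfCS-Ib than in HFD, so it was low in the library in which the lipogenic genes were high. Ttr went the other way, with a ratio of 1.64 for HFD to chow and 0.674 for HFD+DfCS-Ib to HFD. For HFD to chow, Apoa1 was at 1.07, Serpina1a at 0.985, Fgb at 0.808 and Alb at 0.754. Alb alone held 53858.4, 43614.5 and 44973.5 RPKM of the summed levels. Fewer cells of a type and less RNA per cell cannot be told apart in whole tissue. Because adipocytes also make fatty acids, their markers were counted. The defining genes Lep and Retn were at 0 in every library, and Adipoq and Plin1 had 1 count each in HFD and 0 elsewhere. The summed level of the 7 adipocyte markers was 8.17, 15.7 and 13.7 RPKM, and 3 of them were measured above the filter. Cfd had 1, 77 and 3 counts in chow, HFD and HFD+DfCS-Ib, Adrb3 had 19, 69 and 64, and Fabp4 had 73, 77 and 112. Cfd was thus high in the same library as the lipogenic genes, and its part in the results was not tested.

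Between HFD and chow, 7 of the 9 lipogenic genes were at least 2-fold higher in HFD and 0 were at least 2-fold lower. Over all 13153 genes measured, 3.47% were higher and 2.27% lower by as much. The median log2 ratio of the 9 genes was 2.42, beside 0.02 for all genes, with ratios taken on CPM plus 1. Between HFD+DfCS-Ib and HFD the order was the other way: 8 of 9 were at least 2-fold lower with DfCS-Ib and 0 higher, beside 2.02% lower and 2.46% higher over all genes, and the median log2 ratio was -2.35, beside -0.01. In CPM the HFD library was the highest of the 3 for 8 of the 9 genes, all but Acacb (39.8% of all genes), and at least 2-fold above both others for 7 of the 9 (1.47% of all genes). The carboxylase genes were the exceptions: Acaca was less than 2-fold above chow, and Acacb was level in all 3 libraries. Both comparisons use the same HFD library, so their opposite signs are not separate observations.

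**Figure D1:**
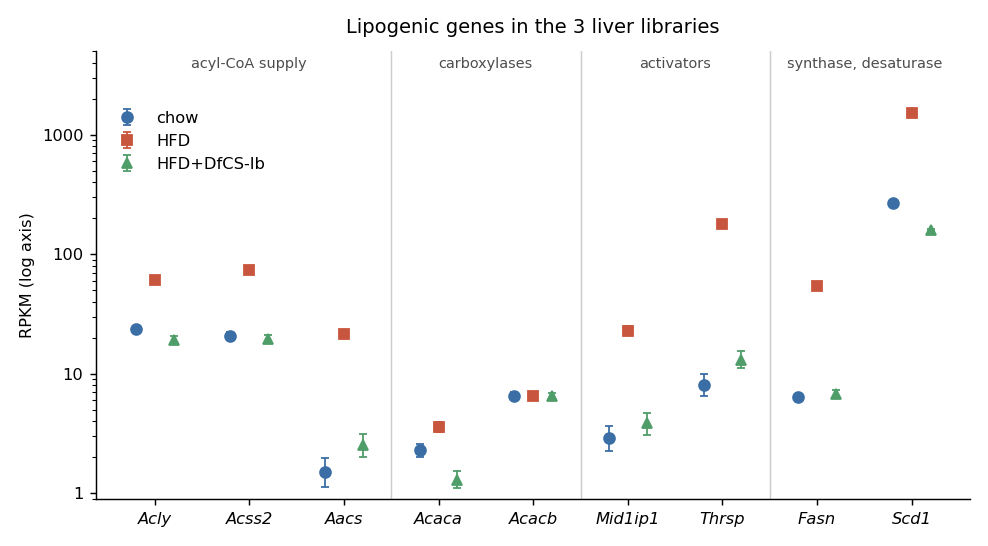
Level of each lipogenic gene (RPKM, log axis) in the chow (circle), HFD (square) and HFD+DfCS-Ib (triangle) liver libraries, 1 library per group, with exact 95% Poisson intervals that cover counting error only. Each gene has its highest point in HFD, though Acacb (6.52, 6.53 and 6.49 RPKM) is nearly level. Levels in HFD run from Acaca (2.31, 3.61 and 1.31 RPKM in the 3 libraries) to Scd1 (266, 1527 and 159).

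Acly, which encodes ATP citrate lyase (mm10 chromosome 11, 100476352 to 100528000), had 1151, 3307 and 936 counts, or 23.6, 60.8 and 19.3 RPKM, in chow, HFD and HFD+DfCS-Ib. HFD stood above the other two. The ratio of scaled counts was 2.40-fold higher in HFD than in chow (2.25 to 2.57, exact 95% interval of the binomial split of the counts) and 2.95-fold lower in HFD+DfCS-Ib than in HFD (2.74 to 3.17). A microRNA gene that overlaps Acly on the same strand, Mir7116, had 10, 47 and 8 counts. Whether reads of Acly were assigned to Mir7116 was not tested.

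Acss2, the acetyl-CoA synthetase of cytosol and nucleus (chromosome 2, 155517953 to 155562746), had 728, 2895 and 688 counts, or 20.7, 74.04 and 19.7 RPKM. It was higher in HFD than in chow by 3.33-fold (3.07 to 3.61), a larger ratio than that of Acly by intervals that did not overlap. In HFD+DfCS-Ib it was 3.51-fold lower than in HFD (3.23 to 3.82). The noncoding gene Acss2os, which overlaps Acss2 on the other strand, showed the same shape with 23, 110 and 29 counts. The strand setting of the counting is not given in the sources used here, and reads of this pair cannot be told apart.

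Aacs, acetoacetyl-CoA synthetase (chromosome 5, 125475873 to 125517403), returns the ketone body acetoacetate to lipid synthesis. It was the least abundant of the 9 genes in chow, with 53 counts or 1.51 RPKM, and reached 842 counts or 21.6 RPKM in HFD, then 88 counts or 2.53 RPKM in HFD+DfCS-Ib. The HFD library was 13.3-fold above chow (10.1 to 17.9) and HFD+DfCS-Ib was 7.98-fold below HFD (6.40 to 10.1). Among all genes measured, Aacs ranked 10 from the top by log2 ratio of HFD to chow.

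The carboxylases differed from the rest and from each other. Acaca, the cytosolic carboxylase whose malonyl-CoA feeds synthesis (chromosome 11, 84129677 to 84401651), had 252, 439 and 142 counts, or 2.31, 3.61 and 1.31 RPKM. It was 1.46-fold higher in HFD than in chow (1.25 to 1.71) and 2.58-fold lower in HFD+DfCS-Ib than in HFD (2.13 to 3.14). With RPKM plus 1 in place of CPM plus 1 it came just short of 2-fold in the second comparison, at a log2 ratio of -0.999 in place of -1.30. A gene that overlaps Acaca on the opposite strand, Gm11437, had 36, 75 and 34 counts. Acacb, the carboxylase at the outer mitochondrial membrane whose malonyl-CoA restrains fatty acid entry through Cpt1a (chromosome 5, 114146318 to 114250761), had 727, 811 and 720 counts, or 6.52, 6.53 and 6.49 RPKM. Its ratios were 0.933 for HFD to chow (0.843 to 1.03) and 1.06 for HFD+DfCS-Ib to HFD (0.962 to 1.18), and both intervals contained 1. The sign of both ratios depended on the scaling, with log2 ratios from -0.11 to 0.00 and from -0.01 to 0.10 over the alternatives. Per length, Acacb was the more abundant isoform in every library. The level of Acaca relative to Acacb was 0.354 in chow (0.306 to 0.409), 0.553 in HFD (0.491 to 0.622) and 0.201 in HFD+DfCS-Ib (0.167 to 0.241), in intervals that did not overlap.

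Mid1ip1 and Thrsp encode related small proteins. The Mid1ip1 product promotes the polymerisation and activity of acetyl-CoA carboxylase, and the Thrsp product pairs with it. In both comparisons that use the HFD library, these genes differed more than the carboxylases did. Mid1ip1 (chromosome X, 10717365 to 10719702) had 66, 583 and 87 counts, or 2.91, 23.1 and 3.85 RPKM, and Thrsp (chromosome 7, 97412957 to 97417510), also known as Spot 14, had 93, 2301 and 150 counts, or 8.12, 180.5 and 13.2 RPKM. HFD was the high library for both. HFD+DfCS-Ib was above chow by 1.62-fold for Thrsp (1.24 to 2.12). For Mid1ip1 that ratio was 1.32, with an interval that contained 1 (0.949 to 1.85). Mid1ip1 was 7.39-fold higher in HFD than in chow (5.72 to 9.68) and 5.59-fold lower in HFD+DfCS-Ib than in HFD (4.45 to 7.08). Thrsp had the largest ratios of the 9 genes, 20.7-fold higher in HFD than in chow (16.8 to 25.7) and 12.8-fold lower in HFD+DfCS-Ib than in HFD (10.8 to 15.2), and ranked 3 of all measured genes in each of these directions. Set against the carboxylase, the Mid1ip1 level per length was 1.26 times that of Acaca in chow (0.946 to 1.66), 6.39 times in HFD (5.63 to 7.25) and 2.95 times in HFD+DfCS-Ib (2.23 to 3.88). For Thrsp the same ratio to Acaca was 3.52 (2.75 to 4.48), 50.02 (45.1 to 55.5) and 10.1 (7.96 to 12.8).

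Fasn, fatty acid synthase (chromosome 11, 120805958 to 120824547), had 697, 6594 and 744 counts, or 6.36, 54.03 and 6.82 RPKM. Its HFD level was 7.91-fold that of chow (7.32 to 8.57), HFD+DfCS-Ib was 7.39-fold below HFD (6.85 to 7.98), and the chow and HFD+DfCS-Ib libraries were close. The Fasn ratio of HFD to chow had an interval that overlapped that of Mid1ip1 and lay above those of Scd1, Acss2, Acly and both carboxylases. In both comparisons that use the HFD library, Fasn also differed more than Acly, which works before the carboxylase step. The Fasn level per length was 0.270 of the Acly level in chow (0.245 to 0.297), 0.888 in HFD (0.852 to 0.926) and 0.354 in HFD+DfCS-Ib (0.321 to 0.390).

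Scd1, the main desaturase of liver (chromosome 19, 44394450 to 44407709), was the most abundant of the 9 genes in every library, with 14201, 90694 and 8443 counts, or 266, 1527 and 159 RPKM. It was 5.34-fold higher in HFD than in chow (5.25 to 5.44) and 8.96-fold lower in HFD+DfCS-Ib than in HFD (8.76 to 9.16). By RPKM it ranked 197 among all genes of the chow table, 41 in HFD and 359 in HFD+DfCS-Ib. Scd1 made up 79.04% of the counts of the 9 genes in chow (78.4 to 79.6), 83.6% in HFD (83.4 to 83.8) and 70.4% in HFD+DfCS-Ib (69.5 to 71.2). All 9 together took 0.163% of the chow library (0.161 to 0.165), 0.883% of HFD (0.878 to 0.889) and 0.109% of HFD+DfCS-Ib (0.107 to 0.111), and without Scd1 the shares were 0.0342%, 0.145% and 0.0324%. Shares carry exact (Clopper-Pearson) 95% intervals. The related desaturase gene Scd2 had 45, 117 and 63 counts, while Scd3 had 0, 8 and 0 and Scd4 had 0, 8 and 1, so reads assigned to these copies were few beside those of Scd1.

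**Figure D2:**
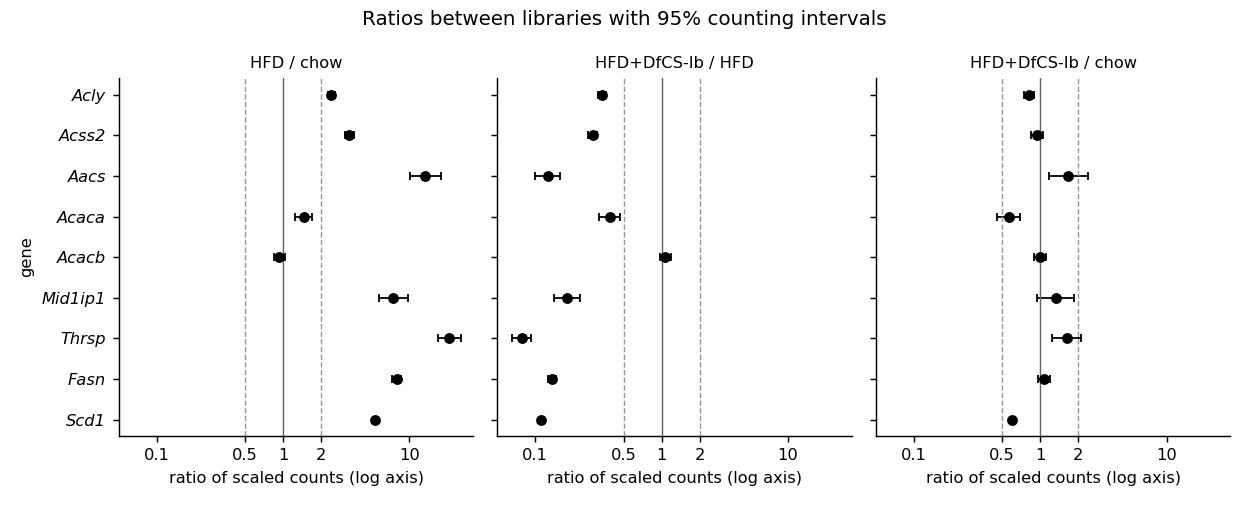
Ratio of scaled counts for each lipogenic gene in the 3 comparisons (log axis), with exact 95% counting intervals; the solid line marks no difference and the dashed lines 2-fold. The intervals of Acacb contain 1 in every panel, and no gene reaches 2-fold between HFD+DfCS-Ib and chow.

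Promoter sequence was examined because most of these genes were high in the same library. RefSeq windows of 250 bases before the start (GRCm38.p6) were found for 8 of the 9 genes, all but Scd1. The sterol regulatory element, searched on both strands as TCACNCCAC, was in 0 of the 8 and in 1.05% of all 32817 windows of that length. An E-box, CACGTG, was in 0 of the 8 and 6.02% of all windows. The NF-Y box, CCAAT, whose factor acts beside SREBP at many lipid genes, was in 4 of the 8, Acss2, Acacb, Thrsp and Fasn, and in 33.8% of all windows. None of these motifs contains another. Other spellings of the motifs and bases outside these windows were not searched, so a count of 0 is not read as absence of sites. Since the motif for which printing had been planned was absent, the 4 genes with CCAAT were chosen for display after the search: the whole Fasn window, which had the most boxes, and 25 bases around each box of the others, with the box (CCAAT, or ATTGG for the other strand) in capitals.

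Fasn, minus strand, chr11:120824548-120824797: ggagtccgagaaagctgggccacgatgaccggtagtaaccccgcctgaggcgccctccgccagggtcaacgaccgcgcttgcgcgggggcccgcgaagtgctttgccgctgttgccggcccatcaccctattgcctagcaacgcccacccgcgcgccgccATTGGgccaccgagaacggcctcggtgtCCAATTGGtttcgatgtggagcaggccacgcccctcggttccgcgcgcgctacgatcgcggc
Thrsp, minus strand, chr7:97417615-97417639: aaacgctgggATTGGctcaaaacag
Thrsp, minus strand, chr7:97417588-97417612: ctgtgttgctCCAATggttgggctt
Acss2, plus strand, chr2:155517960-155517984: cctacccactATTGGatgcctagag
Acacb, plus strand, chr5:114165421-114165445: acaagggaccCCAATagccttgccc

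In the Fasn window the first box began 90 bases before the start, and 2 overlapping boxes on opposite strands ran from 62 to 55 bases before it. The Thrsp boxes began 79 and 52 bases, the Acss2 box 73 bases and the Acacb box 87 bases before the start. The box was thus found both in genes with large ratios and in Acacb, whose level was even across the libraries, while Aacs and Mid1ip1, with ratios of 13.3 and 7.39, had none in this window. RefSeq and deposited starts differ for some genes: the windows of Acaca and Acacb lie inside the deposited gene intervals, and that of Acss2 spans the deposited start. A match of these letters is a description of sequence and not of binding.

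The ratios of HFD to chow ran, from the highest, Thrsp, Aacs, Fasn, Mid1ip1, Scd1, Acss2, Acly, Acaca and Acacb. Neighbours in this order had separate counting intervals except Thrsp with Aacs and Fasn with Mid1ip1. By RPKM the order of levels also differed between libraries. In chow, Scd1 was followed by Acly and Acss2, whose intervals overlapped, then by Thrsp, Acacb and Fasn with overlapping neighbours, and by Mid1ip1, Acaca and Aacs. In HFD, Thrsp was the second most abundant and both carboxylases were the lowest. In HFD+DfCS-Ib, Acss2 and Acly were again behind Scd1, with overlapping intervals, and Acaca was the lowest.

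**Figure D3:**
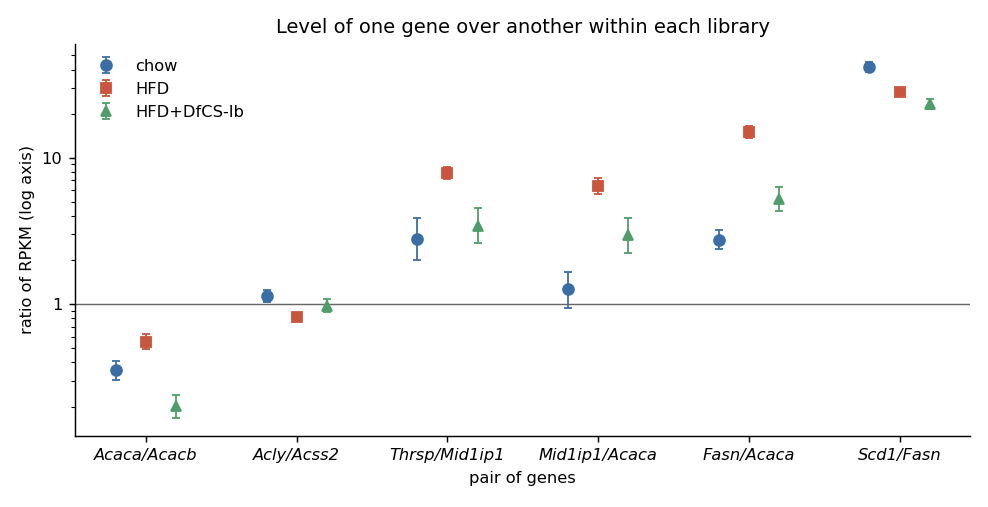
Ratio of the RPKM of one lipogenic gene to that of another within each library (log axis), with exact 95% counting intervals. Relative to Acaca, both Mid1ip1 (1.26, 6.39 and 2.95) and Fasn (2.76, 14.97 and 5.22) were highest in HFD, whereas Scd1 relative to Fasn was 41.9, 28.3 and 23.3 in chow, HFD and HFD+DfCS-Ib.

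The HFD+DfCS-Ib and chow libraries were much closer to each other. None of the 9 genes was 2-fold higher or lower, beside 1.62% and 0.433% of all genes, and the median log2 ratio was -0.01, beside 0.00. The genes were nevertheless not all level. Thrsp, 1.62-fold (1.24 to 2.12), and Aacs, 1.67-fold (1.17 to 2.39), were above chow in HFD+DfCS-Ib, and 5.69% of all genes were at least 1.5-fold higher. Acaca, at a ratio of 0.565 (0.457 to 0.697), and Scd1, at 0.596 (0.580 to 0.613), were below chow, and 3.06% of all genes were at least 1.5-fold lower. Acly was lower by a smaller factor, at 0.816 (0.747 to 0.890). The intervals of the other 4 genes contained 1: Fasn at 1.07 (0.964 to 1.19), Acacb at 0.993 (0.895 to 1.10), Acss2 at 0.948 (0.853 to 1.05) and Mid1ip1 at 1.32 (0.949 to 1.85). Between these libraries Thrsp was higher and Acaca lower in HFD+DfCS-Ib. Counts in chow and HFD+DfCS-Ib were 93 and 150 for Thrsp and 252 and 142 for Acaca.

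**Figure D4:**
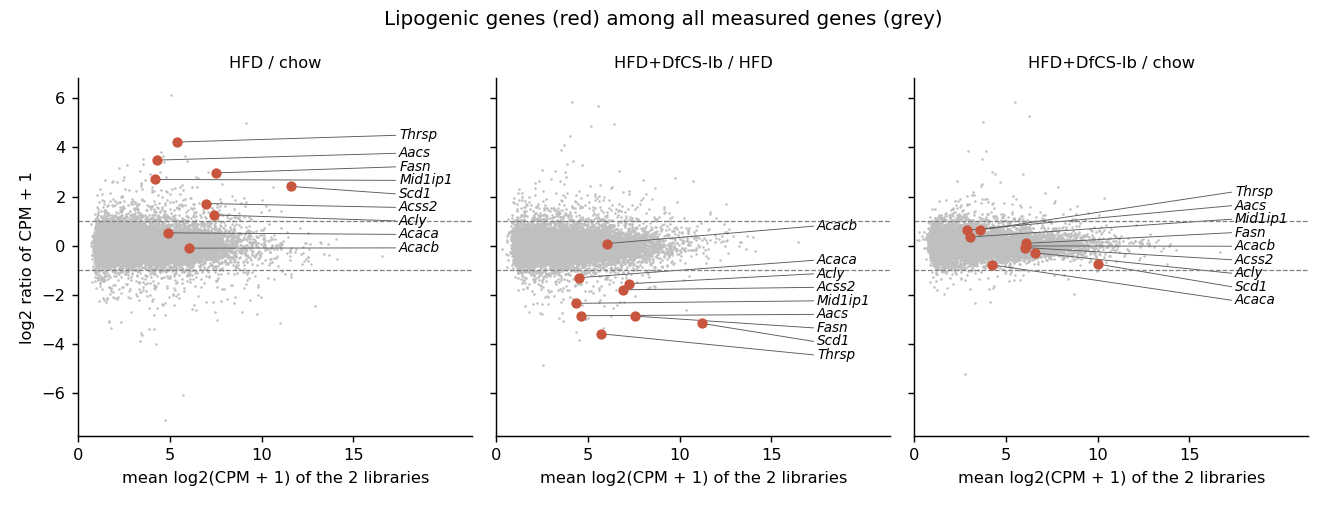
Log2 ratio of CPM plus 1 against the mean log2 level of the 2 libraries for 13153 genes (grey) and the 9 lipogenic genes (red, named), with dashed lines at 2-fold. In the first panel 7 of the 9 lie above the upper line, in the second 8 lie below the lower line, and in the third none crosses either.

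The rest of the pathway was described by 5 lists of genes. Over all genes measured, 3.47% were at least 2-fold higher and 2.27% lower in HFD than in chow. For HFD+DfCS-Ib against HFD these shares were 2.46% and 2.02%, and for HFD+DfCS-Ib against chow 1.62% and 0.433%. Of 21 transcription factor and sensing genes, 4 were at least 2-fold higher in HFD than in chow and 0 lower (median log2 ratio 0.10). Srebf1, which encodes SREBP-1, had 189, 2627 and 293 counts in chow, HFD and HFD+DfCS-Ib, or 11.6-fold more in HFD than in chow (10.03 to 13.5), and Mlxipl, which encodes ChREBP, had 1131, 2740 and 1082 counts, or 2.03-fold more (1.89 to 2.17). Insig1, a sterol-responsive regulator of SREBP processing, and Srebf2 were the others, at 8.24-fold (7.51 to 9.06) and 2.04-fold (1.80 to 2.31). In HFD+DfCS-Ib against HFD, 3 of the 21 were at least 2-fold lower, Srebf1 by 7.48-fold (6.62 to 8.46), Insig1 by 4.20-fold (3.92 to 4.50) and Mlxipl by 2.11-fold (1.97 to 2.27). The list's median was -0.04, and 1 gene was higher, Ppargc1b, a coactivator of SREBP-1c, by 2.42-fold (1.99 to 2.95). Scap, the escort of SREBP, had log2 ratios of -0.10 and 0.09 in the 2 comparisons, and Nr1h3, which encodes LXR alpha, 0.09 and -0.04.

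Among 11 measured genes of citrate, NADPH and pyruvate supply, 2 were at least 2-fold higher in HFD than in chow and 0 lower (median 0.71), and 2 were at least 2-fold lower in HFD+DfCS-Ib than in HFD and 0 higher (median -0.67). Pklr, the pyruvate kinase of liver, had 337, 2846 and 438 counts, 7.06-fold more in HFD than in chow (6.31 to 7.93) and 5.42-fold fewer in HFD+DfCS-Ib than in HFD (4.90 to 6.00). Me1, malic enzyme, which makes NADPH for synthesis, was 1.90-fold higher in HFD than in chow (1.74 to 2.09) and 2.69-fold lower in HFD+DfCS-Ib than in HFD (2.42 to 2.99). Idh1, another NADPH source, was 2.19-fold higher in HFD (2.10 to 2.28). The citrate carrier gene Slc25a1 was listed at 0 in all 3 libraries and Pgd had 1, 2 and 0 counts, and such entries are not read as absence of expression.

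Of 11 measured genes that control the carboxylases and the fate of malonyl-CoA, 0 were at least 2-fold higher in HFD than in chow and 1 was lower (median -0.09). This was Cpt1a, the carnitine palmitoyltransferase that malonyl-CoA inhibits, which had 10173, 4676 and 9771 counts. In HFD+DfCS-Ib against HFD, 2 were higher, Cpt1a by 2.51-fold (2.42 to 2.60) and Trib3, whose product targets carboxylase for degradation, by 2.51-fold (1.84 to 3.46), and 0 were lower (median 0.02). The AMPK subunit gene Prkaa2, for the kinase that inhibits the carboxylases, had log2 ratios of -0.09 and -0.39 in the same comparisons. In the list of elongation, desaturation and esterification, 13 genes were measured and 2 reached 2-fold higher levels in HFD than in chow, Elovl6 by 2.66-fold (2.37 to 2.99) and Elovl3 by 2.23-fold (2.14 to 2.31), and 1 was lower, Lpin1, by 2.25-fold (2.12 to 2.39). Against HFD, 1 gene of this list was 2-fold lower in HFD+DfCS-Ib, Elovl6, which extends palmitate, by 2.36-fold (2.12 to 2.65), and 1 was higher, Lpin1, a phosphatidate phosphatase, by 3.82-fold (3.61 to 4.03). Its medians were 0.36 and -0.30. Of 9 measured genes of mitochondrial fatty acid synthesis and paralogs of the 9 genes, 0 reached 2-fold in either comparison on CPM plus 1, with medians of 0.19 and -0.31. By scaled counts alone, Scd2 was 2.17-fold higher in HFD than in chow (1.53 to 3.14) and Acss3 2.08-fold lower in HFD+DfCS-Ib than in HFD (1.67 to 2.60). No measured gene of the carboxylase, elongation or mitochondrial lists reached 2-fold between HFD+DfCS-Ib and chow, nor did any of citrate supply, and 1 of the transcription factor list did, Ppargc1b, at 2.39-fold (1.95 to 2.95).

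**Figure D5:**
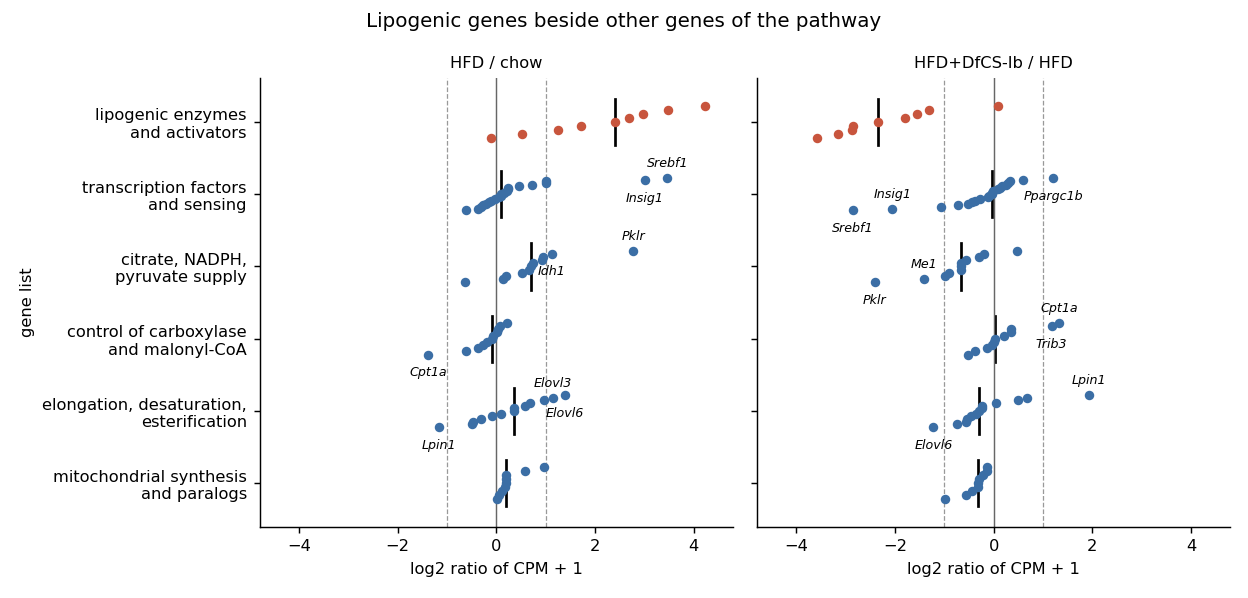
Log2 ratio of CPM plus 1 for the 9 lipogenic genes (red) and the measured genes of 5 other lists (blue) in HFD against chow and in HFD+DfCS-Ib against HFD, with list medians as black bars and dashed lines at 2-fold. The lipogenic genes have medians of 2.42 and -2.35, and those of the other lists lie between -0.67 and 0.71.

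The genes whose pattern was most like that of the 9 were found by the distance of their log2 ratios in HFD against chow and HFD+DfCS-Ib against HFD from the median ratios of the 9 (2.42 and -2.35), among 7348 other protein-coding genes whose mean over the 3 libraries reached 10 CPM. The nearest 5 were Fdft1, squalene synthase, at a distance of 0.07, Mvk, mevalonate kinase, at 0.10, Sucnr1, the succinate receptor, at 0.20, Pmvk, phosphomevalonate kinase, at 0.27, and Cyp51, lanosterol demethylase, at 0.34. Fdft1 had 210, 1370 and 227 counts in chow, HFD and HFD+DfCS-Ib, and Sucnr1 had 127, 760 and 109. All 5 were highest in HFD, which follows from the way they were chosen.

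Markers of other cell types were measured beside these results. Of all genes measured, 3.47% were at least 2-fold higher and 2.27% lower in HFD than in chow. The shares higher in HFD+DfCS-Ib were 2.46% against HFD and 1.62% against chow. Of 7 macrophage and Kupffer cell markers, 0 were at least 2-fold apart between HFD and chow, 2, Emr1 and Marco, were higher in HFD+DfCS-Ib than in HFD and 3, Emr1, Clec4f and Cd5l, were higher in HFD+DfCS-Ib than in chow, with summed levels of 115, 151 and 253 RPKM in chow, HFD and HFD+DfCS-Ib. The summed levels were 117, 102 and 138 RPKM for 5 stellate cell markers, 44.4, 39.9 and 46.2 for 5 endothelial markers, 4.06, 3.69 and 3.08 for 4 cholangiocyte markers and 82.9, 116 and 117 for 6 erythroid markers. By summed counts the erythroid markers were highest in HFD, at 973, 1922 and 1357, through Alas2 with 619, 1549 and 835. Each of the other erythroid markers had its highest count in HFD+DfCS-Ib, such as Hba-a1 with 142, 158 and 180. In these 4 lists, the genes at least 2-fold apart were Alas2 (erythroid), higher, and Lyve1 (endothelium), lower, in HFD than in chow, and Hbb-bs (erythroid) and Lyve1, higher in HFD+DfCS-Ib than in HFD, with 0 between HFD+DfCS-Ib and chow. The part of these cell types in the lipogenic results was not tested.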

How the data were processed

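The authors deposited, for each of the 3 libraries, raw read counts per gene and RPKM, per the file headers, with mm10 positions. TopHat2 and mm10 are named, per the submitters' processing notes. For counting, the tool, strand setting, annotation and handling of multiply placed reads were not given in the sources used here. The deposited RPKM equalled count by length and library total (largest deviation 0.000506% among genes of 100 counts or more).

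CPM was computed with TMM factors (edgeR 4.0.16, R 4.3.3), which were 0.976 for chow, 1.05 for HFD and 0.978 for HFD+DfCS-Ib. Log2 ratios used CPM plus 1, which understates differences of low genes, and genes whose mean reached 1 CPM were kept. Single-gene ratios are of scaled counts with no pseudocount, with exact binomial intervals, and level intervals are exact Poisson (SciPy 1.17.1). All intervals are 95% and cover counting error only. The reads carry no molecular identifiers that the sources name. A gene was counted at a ratio of at least 2-fold, with no p-value. The named genes were the 9, list genes 2-fold apart or needed for a result, and the 5 nearest in pattern. The 9 genes, the lists and the calculations were chosen with earlier results of these data known. The calculations were tested on simulated data. Alternatives were other scalings (none, DESeq2 1.42.0 size factors, RPKM with 1 added, 50 abundant genes left out), pseudocounts, filters and folds. In the supply list, 1 gene is not reported here and is left out of its counts and medians. Promoter sequences are RefSeq's; protein sequences were not used here.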

Additional observations from a re-analysis of the deposited data

How the results depend on the processing

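The numbers of lipogenic genes at least 2-fold apart stayed within 1.5 times under each alternative, except between HFD+DfCS-Ib and chow at a 1.5-fold limit, where 2 were higher and 2 lower in place of 0, since a lower limit admits smaller ratios. Of the 8 genes lower in HFD+DfCS-Ib than in HFD, 7 were so with RPKM plus 1, without Acaca, and 6 at 3-fold. Acaca was at 3.61 RPKM in HFD and 1.31 in HFD+DfCS-Ib, levels at which the added 1 lowers the ratio. Of the 7 higher in HFD than in chow 6 were so at 3-fold. No share of all genes at 3-fold is given here to set beside these counts. The median log2 ratio of the 9 genes ran from 2.18 to 2.52 for HFD against chow, from -2.44 to -1.94 for HFD+DfCS-Ib against HFD and stayed at -0.01 for HFD+DfCS-Ib against chow. Acacb changed sign with CPM without TMM factors and with RPKM, and no other lipogenic gene changed sign under any alternative. The balance over all genes depended on the scaling: 60.5% of genes 2-fold apart were higher in HFD than in chow, against 70.3% without TMM factors and 70.9% with RPKM, and 54.9% were higher in HFD+DfCS-Ib than in HFD, against 43.4% and 42.9%. With a pseudocount of 5, the genes 2-fold higher and lower were 230 and 164 in place of 457 and 298 for HFD against chow, 166 and 128 in place of 324 and 266 for HFD+DfCS-Ib against HFD, and 82 and 21 in place of 213 and 57 for HFD+DfCS-Ib against chow. With RPKM plus 1 they were 404 and 166, 176 and 234, and 125 and 31. For HFD+DfCS-Ib against chow they were 288 and 103 with a pseudocount of 0.5, 288 and 114 with 50 abundant genes left out and 140 and 30 at a mean of at least 5 CPM. No paired analysis was possible because each group has 1 library, and for the same reason no replicate could be left out. The lowest counts, 53 for Aacs and 66 for Mid1ip1 in chow, limit the precision of their ratios.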
